A study of Mus musculus with 12 samples.

Results

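The genes described here are the mouse enzymes that remove peroxides, superoxide and electrophiles with glutathione or thioredoxin, together with the regulators NRF2 and KEAP1. They were chosen by symbol among the protein-coding genes of the deposited table. The rule takes the glutathione S-transferases of classes alpha, kappa, mu, omega, pi, theta and zeta, the glutathione peroxidases, the peroxiredoxins and every symbol beginning with Txn. It adds Sod1, Sod2, Sod3, Cat, Gclc, Gclm, Gsr, Gss, Nqo1, Srxn1, Nfe2l2 and Keap1. It found 67 of 54532 genes, and 53 of them were tested, having a mean of at least 0.5 FPKM (a level corrected for gene length and sequencing depth) over the 12 libraries.

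The RNA came from the gastrocnemius, a calf muscle, of female ICR SCID mice, an immunodeficient strain. TL mice carried a subcutaneous HT1080 tumour, grown from a human fibrosarcoma cell line, and were given selpercatinib, a RET kinase inhibitor, by oral gavage at 30 mg/kg once a day for 19 days. TV mice carried the same tumour and were given vehicle, and NTV mice were free of tumour and were given vehicle. The cell line label reads HT1080 for the NTV samples too, and NTV was taken as tumour-free from its group and treatment labels. Each group had 4 biological replicates, so TL and TV share the tumour, and TV and NTV share the vehicle. No tumour-free group given the drug was analysed here, and TL differs from NTV in both tumour and drug.

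Glutathione is a tripeptide made in sequence by glutamate-cysteine ligase and glutathione synthetase. Glutathione peroxidases spend it to reduce peroxides, S-transferases attach it to electrophiles, and glutathione reductase restores it with NADPH. Thioredoxins and their reductases supply electrons to the peroxiredoxins in a parallel system, while superoxide dismutases turn superoxide into hydrogen peroxide. NRF2, the product of Nfe2l2, binds antioxidant response elements together with a small MAF protein and activates many of these genes, and KEAP1 holds NRF2 down by directing its degradation. In skeletal muscle these enzymes meet the oxidants made by contracting and by wasting fibres.

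In TV muscle, Nfe2l2, Keap1, Gclc, Gpx3, Gpx4, Gstm1, Gstm5, Sod1, Gsr and Txndc16 rose relative to NTV. Sod2, Prdx2, Prdx6, Gstm7, Txndc5 and Txnl4a fell. The largest rises were those of Nfe2l2, 2.80-fold, and of Gpx3, 2.08-fold, and the other 14 changes were smaller than 2-fold. The 16 called members (an adjusted p under 0.05) were 30.2% of those tested, near the 25.2% of all genes called in TV against NTV. In TL against TV no member was called, where 0.517% of all genes were. In TL against NTV 5 members rose and 2 fell, 13.2% of those tested, where 8.81% of all genes were called.

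The upstream sequences show where the letters of an antioxidant response element motif occur near some of these starts, without showing that NRF2 binds there. They are from RefSeq on GRCm38.p6, the build also called mm10, which the submitters' processing notes name. The motif searched was TGACNNNGC, on both strands of the 250 bases before each annotated start, and no other motif was searched. It was present in 10.2% of 32851 such windows, in 11.5% of 27025 genes, and in 11 of the 58 members that the table holds, 19.0%. The first sequence below is the 250 bases before Nfe2l2, the member with the largest rise in TV, which hold 1 match. The second is the 250 bases before the more upstream of a pair of annotated starts of Gstm1, a raised transferase, which hold none. Capitals mark the 6 fixed bases of the motif, and each is written 5′ to 3′ on the gene's strand.
Nfe2l2, chr2:75704664-75704913, minus strand: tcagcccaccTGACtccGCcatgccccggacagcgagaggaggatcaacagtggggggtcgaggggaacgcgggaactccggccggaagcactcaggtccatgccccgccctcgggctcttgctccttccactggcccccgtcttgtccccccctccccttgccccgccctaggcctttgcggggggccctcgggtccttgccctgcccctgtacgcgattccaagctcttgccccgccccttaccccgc
Gstm1, chr3:108017974-108018223, minus strand: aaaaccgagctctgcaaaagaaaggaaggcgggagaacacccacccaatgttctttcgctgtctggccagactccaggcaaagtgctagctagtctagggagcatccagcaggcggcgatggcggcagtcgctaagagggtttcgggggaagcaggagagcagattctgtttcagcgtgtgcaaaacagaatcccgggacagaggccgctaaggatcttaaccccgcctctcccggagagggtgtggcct

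Shorter windows show the matches of 5 other members, each with 20 bases on either side, turned so that the motif reads TGAC first. Sod1 rose and Txndc5 fell in TV, while Gclm, Txnrd1 and Prdx1 were not called in that comparison.
Sod1, chr16:90220686-90220734, minus strand: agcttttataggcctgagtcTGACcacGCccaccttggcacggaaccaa
Txndc5, chr13:38528024-38528072, minus strand: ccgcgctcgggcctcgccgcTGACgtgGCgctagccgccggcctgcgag
Gclm, chr3:122245403-122245451, minus strand: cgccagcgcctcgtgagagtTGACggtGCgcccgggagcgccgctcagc
Txnrd1, chr10:82859094-82859142, minus strand: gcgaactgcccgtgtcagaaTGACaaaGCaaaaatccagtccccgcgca
Prdx1, chr4:116685446-116685494, minus strand: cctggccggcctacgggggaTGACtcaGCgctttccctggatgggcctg
In the GENCODE annotation of this build, the start-distal part of the Nfe2l2 sequence lies in an exon of E030042O20Rik on the other strand. The Txndc5 window lies in an exon of Gm31834. The windows of Txndc5 and Txnrd1 both lie within the extent of their own gene in that annotation, before an internal start. The other sequences printed lie in no annotated exon. Of the members that rose in TV, 8 are in the sequence table and 3 hold the motif, Nfe2l2, Gstm5 and Sod1. Of those that fell, 4 are in the table and 2 hold it, Gstm7 and Txndc5. Gsr, Gclc, Prdx6 and Txnl4a were not matched. A match describes these letters only, and a window without one says nothing of binding elsewhere.

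Depth ranged from 14939830 to 23580603 assigned reads per library. Reads of the mitochondrial genome were 6.04 to 13.9% of the total in TL, 5.08 to 7.70% in TV and 11.6 to 13.5% in NTV. In every library the 5 myofibre markers summed to 33592 FPKM or more, the 5 slow-fibre markers to at most 1220 FPKM, and the 3 hepatocyte markers to at most 0.435 FPKM. Among marker genes of other cells, 3 of 4 tenocyte, 3 of 5 fibro-adipogenic progenitor and 2 of 5 endothelial markers fell in TV against NTV. The remaining tenocyte marker was higher but not called, and no macrophage marker was called. None of the 6 adipocyte markers was called in any of the 3 comparisons. Adipocyte markers summed to 61.8 to 787 FPKM in TL, 116 to 625 FPKM in TV and 45.2 to 186 FPKM in NTV, with TL replicates 1 and 5 highest at 648 and 787 FPKM. In whole muscle, fewer cells of a type and less RNA per cell cannot be told apart.

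By level per length, 6 members averaged over 100 FPKM: Txnip, Gpx4, Gpx3, Prdx3, Gstp1 and Gstm1. Another 25 averaged 10 to 100 FPKM, 21 averaged 1 to 10 FPKM, and Gsto2 was the only tested member under 1 FPKM. The tested members summed to 1647 to 1817 FPKM in TL, 1673 to 2094 FPKM in TV and 1454 to 1839 FPKM in NTV, ranges that overlapped. The 14 untested members had means of at most 0.428 FPKM. Gpx5, Gpx6, Gsta1, Prdx6b and Txndc8 had 0 reads in every library, which allows up to 3 reads each, and 4 others had 1 to 10 reads over all libraries. Gsta3, an alpha-class transferase among the untested, had 27 to 91 reads in TL, 5 to 33 in TV and 0 to 6 in NTV, and was highest in TL replicate 5 at 1.33 FPKM.

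The comparison of TV with NTV asked how the tumour altered these transcripts in vehicle-treated mice. Limma on log2(FPKM + 0.5) called a gene at an adjusted p under 0.05, and changes below are log2 differences ± SE on that scale. Of the 53 members, 10 rose and 6 fell, 16 in all or 30.2%. Over all 12754 genes tested 13.8% rose, 11.5% fell and 25.2% were called, so the members' share lay near the background and is not read as a result about them. With quantile normalization 9 members rose and 12 fell, and with the adipocyte markers as a covariate, added after the values were seen, 8 rose and 12 fell. Their median change was 0.02, against 0.02 for all genes. TV and NTV values did not overlap for 18 members, 14 of them called, while 27.1% of all genes did not overlap.

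Nfe2l2 encodes the transcription factor NRF2. It stood at 15.9, 18.2, 12.1 and 17.3 FPKM in TL, at 54.2, 29.5, 17.3 and 44.2 FPKM in TV, and at 9.13, 13.6, 12.2 and 11.8 FPKM in NTV. All TV values lay above all NTV values, and TV replicate 6 lay within the range of TL. The change in TV against NTV was 1.49 ± 0.29 (adjusted p = 0.00459). Its repressor Keap1 had 17.8, 22.4, 15.9 and 20.6 FPKM in TL, 23.1, 20.6, 20.2 and 19.5 FPKM in TV, and 13.6, 14.8, 12.6 and 13.3 FPKM in NTV. Both tumour groups lay wholly above NTV, with rises of 0.60 ± 0.11 in TV (adjusted p = 0.00349) and 0.47 ± 0.11 in TL (adjusted p = 0.0227). The spread differed between these regulators, since the TV libraries of Nfe2l2 ranged from 17.3 to 54.2 FPKM and those of Keap1 from 19.5 to 23.1 FPKM.

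**Figure D1:**
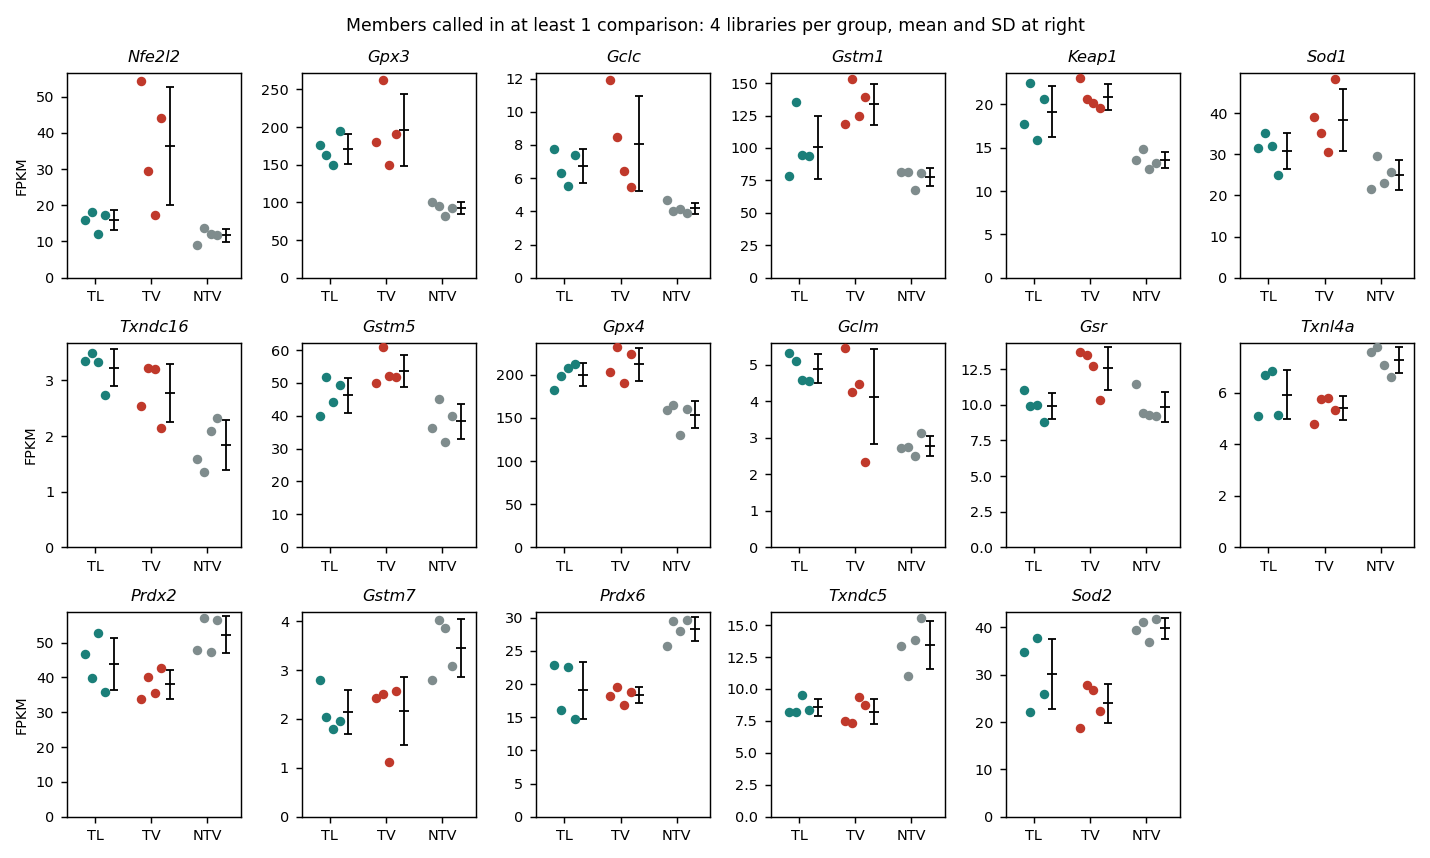
FPKM (vertical axes, each starting at 0) of the 17 members called in at least 1 comparison, with the 4 libraries of TL, TV and NTV as points and the mean ± SD beside them. Nfe2l2 in TV spreads from 17.3 to 54.2 FPKM, while Prdx6 and Sod2 in TV lie wholly below NTV.

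Among the genes of glutathione synthesis, Gclc encodes the catalytic subunit of glutamate-cysteine ligase. Its levels were 7.75, 6.31, 5.53 and 7.39 FPKM in TL, 11.9, 8.47, 6.41 and 5.47 FPKM in TV, and 4.65, 4.02, 4.13 and 3.92 FPKM in NTV. All values of TL and TV exceeded all values of NTV, and the rise in TV was 0.82 ± 0.19 (adjusted p = 0.0110). Gclm, the modifier subunit of the same enzyme, had 5.33, 5.11, 4.57 and 4.55 FPKM in TL, 5.45, 4.24, 4.48 and 2.33 FPKM in TV, and 2.72, 2.76, 2.50 and 3.13 FPKM in NTV. TV replicate 8 lay below the NTV range, and the difference of TV from NTV was 0.45 ± 0.18 (adjusted p = 0.0903); without that library it was 0.67 (adjusted p = 0.00266). Gsr, glutathione reductase, had 11.04, 9.90, 9.96 and 8.83 FPKM in TL, 13.7, 13.5, 12.7 and 10.3 FPKM in TV, and 11.5, 9.42, 9.31 and 9.22 FPKM in NTV. It rose in TV by 0.33 ± 0.11 (adjusted p = 0.0451) with overlapping groups, and leaving out TL replicate 4 or 5, TV replicate 3, 4 or 6, or NTV replicate 3, 5 or 6 ended that call (adjusted p 0.0530 to 0.112). Gss, glutathione synthetase, averaged 3.19 ± 1.21 FPKM in TV and 2.71 ± 0.551 FPKM in NTV (SD, n = 4 each), a difference of 0.16 ± 0.21 that was not called.

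Of 5 tested glutathione peroxidases 2 rose and none fell in TV, where 25.2% of all genes were called. Gpx3, the secreted plasma form, had 176, 163, 149 and 195 FPKM in TL, 180, 262, 150 and 191 FPKM in TV, and 100, 94.5, 81.7 and 92.7 FPKM in NTV. No library of a tumour-bearing mouse overlapped NTV, and the rise in TV was 1.06 ± 0.16 (adjusted p = 0.00153). Gpx4, which reduces lipid hydroperoxides in membranes, had 182, 198, 208 and 213 FPKM in TL, 203, 232, 190 and 224 FPKM in TV, and 159, 165, 130 and 160 FPKM in NTV. Its rise was 0.47 ± 0.11 (adjusted p = 0.0106), and again no library of TV or TL overlapped NTV. The pseudogene Gpx4-ps2 averaged 70.8 FPKM and rose by 0.42 ± 0.12, and how reads are divided between it and Gpx4 is uncertain. Gpx1, the cytosolic form, averaged 35.5 ± 8.49 FPKM in TV and 40.5 ± 3.09 FPKM in NTV, a difference of -0.21 ± 0.16 that was not called, and Gpx7 and Gpx8 differed by 0.19 and -0.17.

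The 6 tested peroxiredoxins had lower means in TV than in NTV, and 2 of them were called, both as falls, where 25.2% of all genes were called. The count is too small to be read as a change of the family. Prdx6, which reduces peroxides using glutathione, had 22.8, 16.1, 22.5 and 14.8 FPKM in TL, 18.1, 19.6, 16.8 and 18.8 FPKM in TV, and 25.8, 29.5, 27.9 and 29.7 FPKM in NTV. Both tumour groups lay below NTV, and the fall in TV was -0.61 ± 0.14 (adjusted p = 0.00855). Prdx2, a cytosolic thioredoxin peroxidase, had 46.6, 39.8, 52.8 and 35.9 FPKM in TL, 33.8, 40.0, 35.6 and 42.8 FPKM in TV, and 47.9, 57.0, 47.3 and 56.5 FPKM in NTV. It fell by -0.45 ± 0.13 (adjusted p = 0.0269) with TV below NTV throughout. The call ended without TV replicate 3 or 6 or NTV replicate 3 or 6 (adjusted p 0.0545 to 0.0725). Prdx2 overlaps 351 bases of Junb on the opposite strand, a gene at 28.6 FPKM, and reads of the pair cannot be told apart if strand was not used in counting.

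The other 4 peroxiredoxins were not called. Prdx3, the mitochondrial peroxiredoxin and the most abundant of the family, averaged 118 ± 11.2 FPKM in TV and 152 ± 17.8 FPKM in NTV (-0.37 ± 0.13, adjusted p = 0.0581), and it was called without TL replicate 5 or NTV replicate 5 (adjusted p = 0.0390 each). Prdx1, cytosolic, averaged 59.8 ± 4.26 FPKM in TV and 69.7 ± 4.79 FPKM in NTV, without overlap (-0.22 ± 0.09, adjusted p = 0.106). Prdx5, found in mitochondria, peroxisomes and cytosol, averaged 58.3 ± 10.2 FPKM in TV and 70.8 ± 9.51 FPKM in NTV. Prdx4, of the endoplasmic reticulum, averaged 2.81 ± 0.540 FPKM in TV and 3.24 ± 0.657 FPKM in NTV. These differences were smaller than those of Prdx2 and Prdx6. With quantile normalization Prdx1, Prdx3 and Prdx5 were called as well, at -0.37, -0.46 and -0.43.

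The superoxide dismutases moved in opposite directions. Sod1, the copper-zinc enzyme of the cytosol, had 31.5, 35.1, 31.9 and 24.9 FPKM in TL, 39.2, 35.2, 30.6 and 48.4 FPKM in TV, and 21.6, 29.7, 23.0 and 25.6 FPKM in NTV. Sod2, the manganese enzyme of the mitochondrial matrix, had 34.8, 22.1, 37.8 and 25.9 FPKM in TL, 18.8, 27.9, 26.7 and 22.4 FPKM in TV, and 39.4, 41.2, 36.9 and 41.8 FPKM in NTV. TV lay wholly above NTV for Sod1 and wholly below it for Sod2, while TL replicates 1 and 5 of Sod2 came close to or into the NTV range. Sod1 rose by 0.60 ± 0.15 (adjusted p = 0.0159) and Sod2 fell by -0.74 ± 0.17 (adjusted p = 0.00961). The share of mitochondrial genome reads was also lower in TV, at 5.08 to 7.70%, against 11.6 to 13.5% in NTV, and its part in the Sod2 result was not tested. Sod1 overlaps Scaf4 on the opposite strand over 650 bases, at 4.25 FPKM. Sod3, the extracellular enzyme, ranged from 0.844 to 4.31 FPKM in TL, 1.32 to 3.01 FPKM in TV and 2.06 to 4.65 FPKM in NTV. It was not called in TV against NTV (-0.50 ± 0.42, adjusted p = 0.406), but with the adipocyte markers as a covariate the difference was -1.08 (adjusted p = 0.0361). That covariate was added after the values were seen and differs between the groups, so this call is not read as support for a fall.

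Cat, catalase, splits hydrogen peroxide in peroxisomes. It had 54.7, 21.2, 50.1 and 22.6 FPKM in TL, 37.0, 40.3, 28.2 and 34.2 FPKM in TV, and 36.7, 48.9, 53.1 and 48.9 FPKM in NTV. The TL libraries fell into a high pair, replicates 1 and 5, and a low pair, replicates 4 and 7. The high pair also had the highest adipocyte marker sums of all libraries. Within TV, replicate 4 was highest and replicate 6 lowest for both, at 625 and 116 FPKM of the markers and 40.3 and 28.2 FPKM of Cat. NTV replicate 5 was the highest of NTV for both, at 186 and 53.1 FPKM. NTV replicate 3 had the lowest sum of all libraries, 45.2 FPKM, with Cat at 48.9 FPKM, above every TV library. The TL pairs also differed in mitochondrial genome reads, 10.1 and 13.9% in the high pair and 6.04 and 6.55% in the low pair. Cat did not pass the test in TV against NTV (-0.42 ± 0.29, adjusted p = 0.303). With the adipocyte covariate it was lower in TV by -0.87 (adjusted p = 0.00571) and in TL by -1.08 (adjusted p = 0.0104), both against NTV. Without TL replicates 1 and 5 the difference of TL from NTV was -1.07 (adjusted p = 0.00770). These were the highest TL libraries for Cat, and leaving them out was chosen after the values were seen. That omission lowers the TL mean in advance, so its adjusted p is not read as support for a fall. The covariate was also added after the values were seen. Its markers summed highest in the same TL replicates, and their median change against NTV was 1.56 in TV and 1.78 in TL. The covariate thus differs between the groups compared, and its adjusted p is not read as support either. The part of adipocytes in these values was not tested beyond this, and that of the mitochondrial share was not tested.

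**Figure D2:**
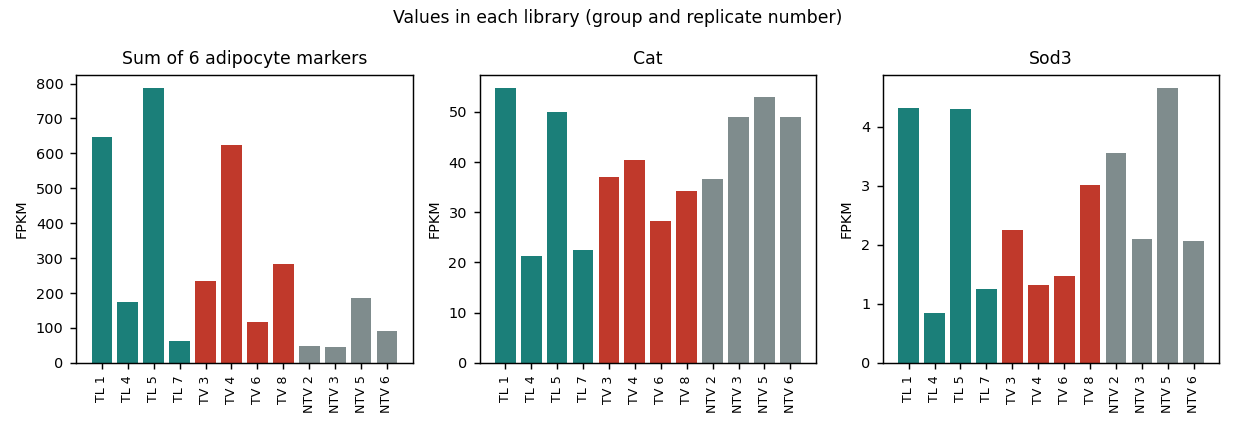
FPKM in each of the 12 libraries (bars from 0, labelled by group and replicate number) for the sum of 6 adipocyte markers, Cat and Sod3. TL replicates 1 and 5 exceed TL replicates 4 and 7 in all 3 panels, by 54.7 and 50.1 against 21.2 and 22.6 FPKM for Cat. TV replicate 4, with 625 FPKM of the markers, has 1.32 FPKM of Sod3, the lowest of TV.

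None of the 6 thioredoxins, reductases and Txnip was called in TV against NTV, where 25.2% of all genes were. Txn1, cytosolic thioredoxin, averaged 53.3 ± 9.48 FPKM in TV and 46.5 ± 5.49 FPKM in NTV (0.18 ± 0.15). Txn2, its mitochondrial counterpart, averaged 37.1 ± 3.12 FPKM in TV and 45.7 ± 2.55 FPKM in NTV, without overlap (-0.30 ± 0.11, adjusted p = 0.0712). It was called as lower in TV with quantile normalization (-0.45, adjusted p = 0.0123) or with TV and NTV fitted alone (adjusted p = 0.0475). The same held with the adipocyte covariate (-0.44, adjusted p = 0.0111) or TL replicates 1 and 5 left out (adjusted p = 0.0341). Both of these settings were chosen after the values were seen. Txnrd1, the cytosolic reductase and a known NRF2 target, had 25.0, 13.3, 15.2 and 14.8 FPKM in TL, 28.5, 22.9, 16.3 and 14.4 FPKM in TV, and 14.3, 13.9, 13.3 and 12.01 FPKM in NTV. Every TV value exceeded every NTV value, the lowest by little, and the difference was 0.55 ± 0.22 (adjusted p = 0.0849). It was called as higher without TV replicate 8 (0.70, adjusted p = 0.0384), without TL replicate 1 (adjusted p = 0.0480) and with library weights (0.63, adjusted p = 0.0387). Its span overlaps Gm38560 on the opposite strand, a gene at 18.8 FPKM. Txnrd2, the mitochondrial reductase, hardly varied, at 5.37 ± 0.204 FPKM in TV and 5.30 ± 0.476 FPKM in NTV. Txnip, which binds and inhibits thioredoxin, was among the most abundant members and varied widely within each group, from 141 to 315 FPKM in TL, 112 to 328 FPKM in TV and 159 to 368 FPKM in NTV.

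Nqo1 and Srxn1 are textbook NRF2 targets. Nqo1, a quinone reductase, had 11.1, 8.20, 10.7 and 12.7 FPKM in TL, 10.9, 13.4, 12.3 and 10.7 FPKM in TV, and 9.84, 13.4, 7.81 and 10.4 FPKM in NTV. The groups overlapped and the difference of TV from NTV was 0.20 ± 0.16 (adjusted p = 0.384, 95% interval -0.15 to 0.55). Srxn1, sulfiredoxin, which repairs oxidized peroxiredoxins, had 19.6, 11.3, 11.7 and 10.04 FPKM in TL, 40.4, 11.7, 8.03 and 46.6 FPKM in TV, and 9.34, 18.3, 10.1 and 9.004 FPKM in NTV. TV replicates 3 and 8 were the highest of all libraries and TV replicate 6 the lowest. The difference was 0.86 ± 0.49 (adjusted p = 0.222). Without TV replicate 6 it was 1.29 (adjusted p = 0.0499), the only call among 26 alternative fits. In TV the same replicates 3 and 8 were highest for Nfe2l2. However, TV replicate 8 was the lowest of TV for Gclc, Gclm, Txnrd1, Gsr and Nqo1, at 5.47, 2.33, 14.4, 10.3 and 10.7 FPKM. TV replicate 3 was the highest of TV for all of these but Nqo1. A link of Srxn1 with Nfe2l2 was not tested.

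Of 14 tested glutathione S-transferases 2 rose and 1 fell in TV, where 25.2% of all genes were called. Gstm1, a mu-class enzyme and the most abundant of those that rose, had 78.6, 135, 94.5 and 94.0 FPKM in TL, 118, 153, 124 and 139 FPKM in TV, and 81.5, 81.4, 67.4 and 80.9 FPKM in NTV. Gstm5, another mu-class enzyme, had 39.9, 51.7, 44.1 and 49.3 FPKM in TL, 49.9, 60.8, 52.1 and 51.7 FPKM in TV, and 36.2, 45.0, 32.1 and 39.8 FPKM in NTV. TV was above NTV in every library for both, by 0.77 ± 0.15 (adjusted p = 0.00518) for Gstm1 and 0.49 ± 0.12 (adjusted p = 0.0139) for Gstm5. Gstm7 had 2.81, 2.04, 1.79 and 1.97 FPKM in TL, 2.43, 2.52, 1.12 and 2.57 FPKM in TV, and 2.81, 4.02, 3.87 and 3.08 FPKM in NTV. It fell in TV by -0.60 ± 0.21 (adjusted p = 0.0498), a call that 19 of 25 alternatives ended, among them leaving out TL replicate 4, 5 or 7 or any library of TV but replicate 8 or any of NTV (adjusted p 0.0557 to 0.114). TV replicate 6 was lowest, and without it the difference was -0.38.

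The mu-class genes lie side by side on chromosome 3 and resemble each other, so reads may be divided among them. Gstm2 and Gstm4, the other tested mu-class genes, differed by 0.38 ± 0.24 and 0.02 ± 0.11 and were not called. Gsta4, an alpha-class enzyme that conjugates the lipid peroxidation product 4-hydroxynonenal, had 11.3, 8.84, 14.4 and 11.3 FPKM in TL, 5.58, 8.0, 8.68 and 9.45 FPKM in TV, and 9.26, 11.1, 11.7 and 11.98 FPKM in NTV. TV was mostly below both other groups, but neither the difference from NTV (-0.47 ± 0.17, adjusted p = 0.0616) nor that of TL from TV was called. Without TV replicate 8 or TL replicate 4 the difference from NTV was called (adjusted p = 0.0411 and 0.0468). Gstp1, the pi-class enzyme, averaged 127 ± 16.5 FPKM in TV and 102 ± 28.8 FPKM in NTV and was not called.

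Of the 10 tested thioredoxin-like and thioredoxin domain genes 1 rose and 2 fell in TV, where 25.2% of all genes were called. Txndc5, a protein disulfide isomerase of the endoplasmic reticulum, had 8.18, 8.21, 9.49 and 8.32 FPKM in TL, 7.47, 7.34, 9.35 and 8.74 FPKM in TV, and 13.3, 11.04, 13.8 and 15.6 FPKM in NTV. Both tumour groups lay below NTV, and TV fell by -0.67 ± 0.11 (adjusted p = 0.00256). Fibro-adipogenic progenitor markers summed to 33.4 to 57.3 FPKM in TL, 40.7 to 74.5 FPKM in TV and 65.5 to 91.6 FPKM in NTV, and their part in this result was not tested. Txndc16, a glycoprotein of the endoplasmic reticulum, had 3.34, 3.50, 3.34 and 2.74 FPKM in TL, 2.54, 3.22, 3.21 and 2.15 FPKM in TV, and 1.59, 1.35, 2.09 and 2.33 FPKM in NTV. It rose in TV by 0.49 ± 0.15 (adjusted p = 0.0360) with overlap, and the call ended without TV replicate 3, 4 or 6 or NTV replicate 2 or 3 (adjusted p 0.0560 to 0.0971).

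Txnl4a carries a thioredoxin fold but encodes a protein of the spliceosome, not a redox enzyme. Its values were 5.08, 6.67, 6.82 and 5.11 FPKM in TL, 4.79, 5.74, 5.80 and 5.31 FPKM in TV, and 7.57, 7.78, 7.07 and 6.62 FPKM in NTV. TV lay below NTV, a fall of -0.39 ± 0.11 (adjusted p = 0.0242) that was not called without TV replicate 3 or NTV replicate 2 or 3 (adjusted p 0.0608 to 0.0667). Txnl4a overlaps the gene Gm16286 on the same strand over 5947 bases, at 15.0 FPKM, so its level is uncertain.

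**Figure D3:**
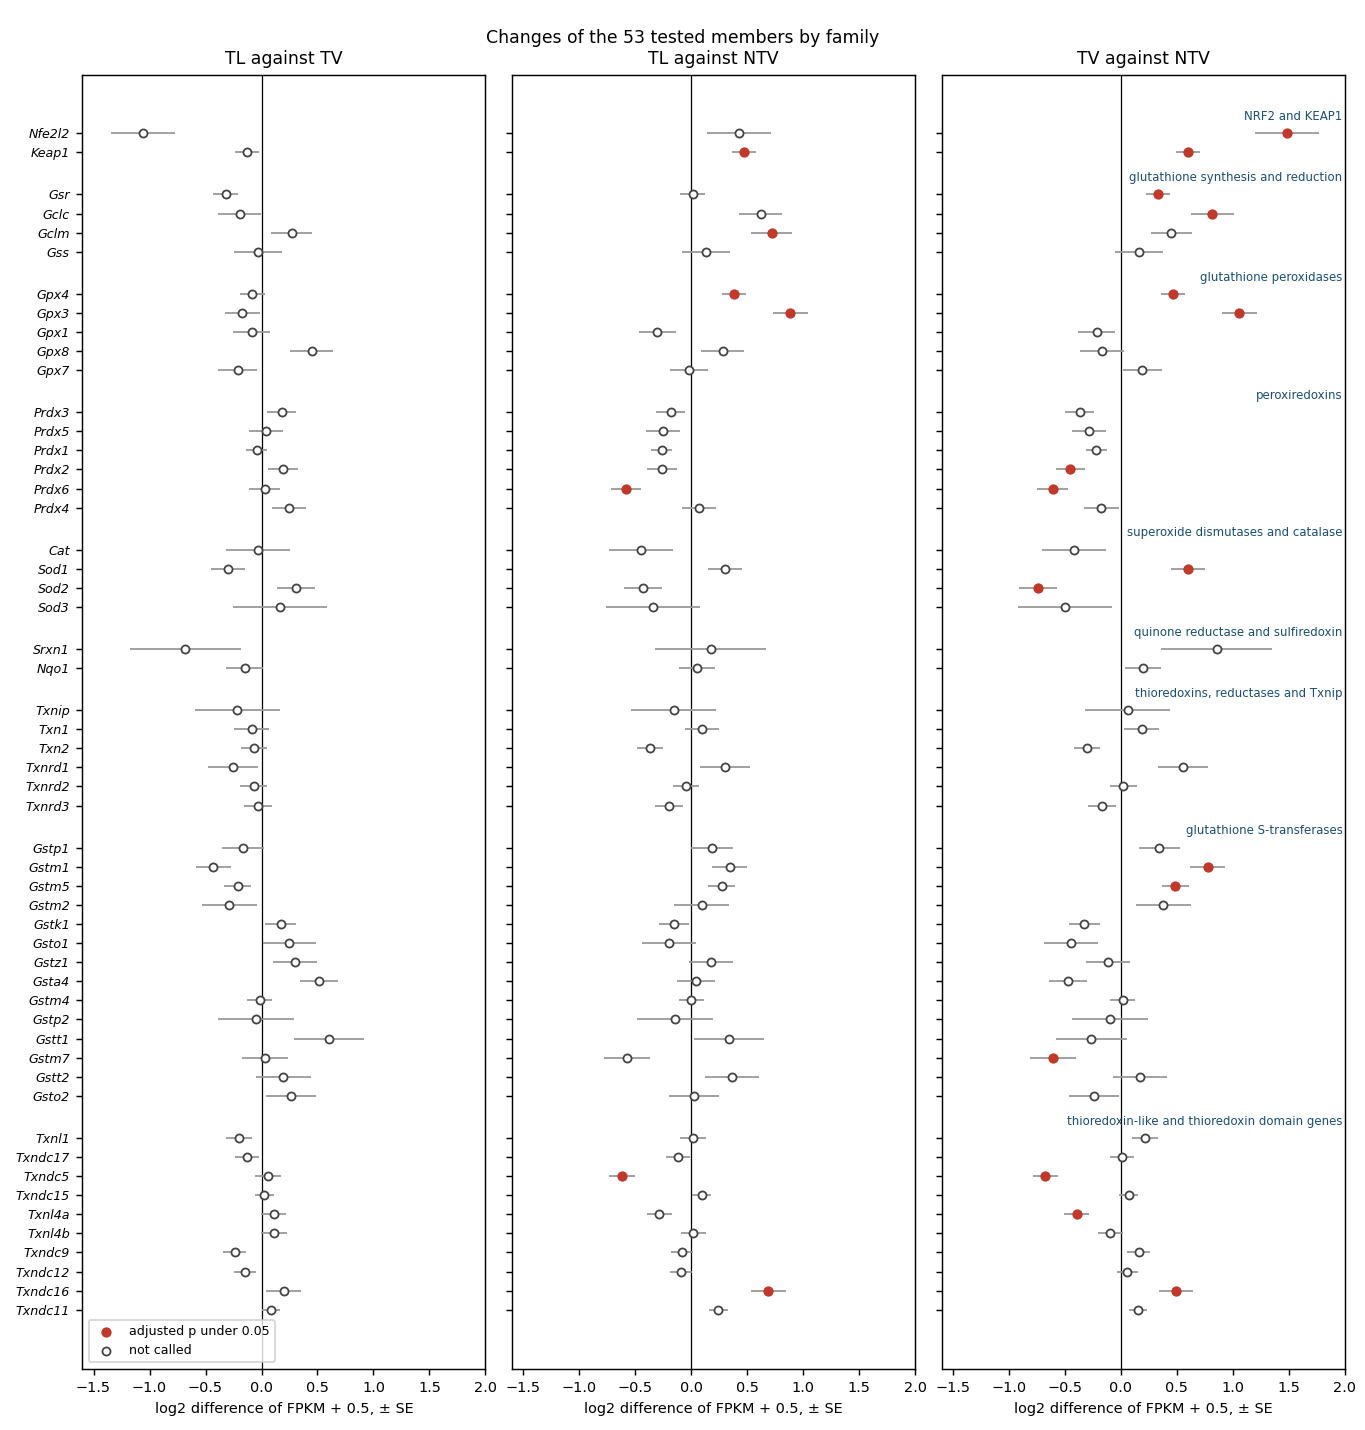
Log2 difference of FPKM + 0.5 with its SE (horizontal axes) for the 53 tested members, ordered by family and by mean level, in TL against TV, TL against NTV and TV against NTV. Filled red points are called at an adjusted p under 0.05: 0 in TL against TV, 7 in TL against NTV and 16 in TV against NTV.

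Under all 25 alternatives other than the replicate block, 11 of the 16 calls were kept, namely those of Nfe2l2, Keap1, Gclc, Gpx3, Gpx4, Gstm1, Gstm5, Sod1, Sod2, Prdx6 and Txndc5. The replicate block ended all 16 calls. Few replicate numbers are shared between groups, so that fit leaves little from which to estimate the spread. Its loss of calls does not show that the changes depend on a pairing.

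The comparison of TL with TV asked what selpercatinib altered in tumour-bearing mice. No member was called by limma, and 6 had an unadjusted p under 0.05. Over all genes 66 were called, 0.517%, with 0.235% higher and 0.282% lower, and 2057 genes had an unadjusted p under 0.05. The members' median difference was -0.03 and that of all genes 0.00. No member had TL and TV values without overlap, against 7.42% of all genes.

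The lowest adjusted p among members was that of Nfe2l2, which averaged 15.9 ± 2.68 FPKM in TL and 36.3 ± 16.2 FPKM in TV (SD, n = 4 each). The difference was -1.06 ± 0.29 (adjusted p = 0.124, 95% interval -1.69 to -0.43). Without TV replicate 6, the lowest of TV, it was -1.37 (adjusted p = 0.0257), the only call among 26 alternative fits. Leaving out other single libraries gave an adjusted p of up to 0.333. Gstm1 averaged 101 ± 24.2 FPKM in TL and 134 ± 15.7 FPKM in TV, a difference of -0.43 ± 0.15 (adjusted p = 0.210). Without TL replicate 4, the highest of TL, it was -0.58 (adjusted p = 0.0424), again the only call among 26 alternative fits. The others with an unadjusted p under 0.05 were Gsr at -0.32 ± 0.11, Txndc9 at -0.24 ± 0.10, Gsta4 at 0.51 ± 0.17 and Gpx8 at 0.45 ± 0.19, the last a peroxidase of the endoplasmic reticulum. For Keap1 the 95% interval of the difference was -0.37 to 0.11, and for Gpx3 it was -0.51 to 0.17. Sod2 differed by 0.31 ± 0.17 and Sod1 by -0.30 ± 0.15, with intervals that include 0. A p above the threshold does not show that TL and TV were alike.

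In TL against NTV, 5 members rose and 2 fell, 7 in all or 13.2%. Over all genes 4.19% rose, 4.62% fell and 8.81% were called. Without TL replicates 1 and 5, and likewise with the adipocyte covariate, 2 members rose and 5 fell. Of the members, 10 had TL and NTV values without overlap, against 20.8% of all genes. Gpx3 rose by 0.88 ± 0.16 (adjusted p = 0.00830), averaging 171 ± 19.5 FPKM in TL and 92.2 ± 7.68 FPKM in NTV. Gclm rose by 0.72 ± 0.18 (adjusted p = 0.0332), Txndc16 by 0.69 ± 0.15 (adjusted p = 0.0202), Keap1 by 0.47 ± 0.11, and Gpx4 by 0.38 ± 0.11 (adjusted p = 0.0493). Txndc5 fell by -0.62 ± 0.11 (adjusted p = 0.00999) and Prdx6 by -0.58 ± 0.14 (adjusted p = 0.0242). All 7 had separate groups.

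Only Gpx3 and Txndc5 were called in TL against NTV under all 25 alternatives other than the replicate block, which ended every call. The calls of Gpx4 and Gclm ended on leaving out any NTV library or TL replicate 1, 4 or 7, and that of Gpx4 also without TL replicate 5 or TV replicate 3, 4 or 8 (adjusted p 0.0504 to 0.119 for Gpx4 and 0.0589 to 0.0872 for Gclm). Those of Keap1 and Prdx6 ended without TL replicate 4 or 7 or NTV replicate 5 or 6, with NTV replicate 2 further for Keap1 and NTV replicate 3 for Prdx6 (adjusted p 0.0541 to 0.0728), and that of Txndc16 without TL replicate 4 or NTV replicate 2 (0.0592 and 0.0553). TV against NTV and TL against NTV share the NTV libraries, so their values are set side by side only. For 14 of the 16 members called in TV against NTV, the TL mean lay between the means of TV and NTV, and the exceptions were Gstm7 and Txndc16. These 16 were picked for a difference between TV and NTV, which by itself favours a TL mean between the 2. The share over all called genes is not given here, so this count is not read as an effect of the drug. Of the 16, 6 were also called in TL against NTV, and Gclm was called there alone. Nfe2l2 in TL differed from NTV by 0.43 ± 0.29 (adjusted p = 0.360), Sod2 by -0.43 ± 0.17 (adjusted p = 0.128) and Sod1 by 0.30 ± 0.15 (adjusted p = 0.231). Without TL replicates 1 and 5 the Sod2 difference was called at -0.72 (adjusted p = 0.0223), and with the adipocyte covariate at -0.66 (adjusted p = 0.0489). Txn2 was likewise called as lower in TL than in NTV without TL replicates 1 and 5 (-0.56, adjusted p = 0.0150) or without TL replicate 5 alone (-0.45, adjusted p = 0.0325). It was also called with the covariate or quantile normalization (adjusted p = 0.0149 and 0.0331). TL replicates 1 and 5 were the highest of TL for Sod2 and Txn2, and leaving both out was chosen after the values were seen. That omission lowers the TL mean in advance, so its calls are not read as support for a fall. The covariate was also added after the values were seen, and its markers summed highest in these replicates. Calls under the covariate are not read as support either.

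Lists of related genes were then counted against the background of TV against NTV, in which 13.8% of all genes rose, 11.5% fell and the median change was 0.02. No list was tested, and a list of this size with a share of calls near 25.2% shows nothing of its own. Of 12 tested partners and regulators of NRF2 outside the members, 5 rose and 1 fell in TV against NTV, with a median change of 0.34. Sqstm1, the autophagy receptor p62, which binds KEAP1, averaged 199 ± 18.2 FPKM in TL, 294 ± 56.2 FPKM in TV and 136 ± 11.9 FPKM in NTV, a rise in TV of 1.09 ± 0.14 (adjusted p = 0.00107). Bach1, a repressor that competes with NRF2 for the same elements, averaged 8.09 ± 1.75 FPKM in TL, 14.2 ± 6.41 FPKM in TV and 4.98 ± 0.603 FPKM in NTV, a rise in TV of 1.34 ± 0.25. Mafk, a small MAF partner of both, averaged 8.06 ± 3.15 FPKM in TL, 21.98 ± 9.74 FPKM in TV and 6.44 ± 2.29 FPKM in NTV, a rise in TV of 1.66 ± 0.34. TV lay above NTV in every library for all 3. The small MAF genes Maff and Mafg also rose, by 2.45 ± 0.50 and 0.36 ± 0.11, and Dpp3, whose product binds KEAP1, fell by -0.48 ± 0.14. In TL against TV none of the 12 was called, and Sqstm1 rose in TL against NTV by 0.54 ± 0.14.

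Of 18 tested NRF2 target genes outside the members, 3 rose and 1 fell in TV, near the background, and their median change was 0.14. Fth1, the ferritin heavy chain, rose by 0.62 ± 0.14 (adjusted p = 0.00814), Abcc1, an exporter of glutathione conjugates, by 0.70 ± 0.16 (adjusted p = 0.00960), and Ftl1, the ferritin light chain, by 0.53 ± 0.18. Slc6a9, a glycine transporter, fell by -0.38 ± 0.12. Hmox1, heme oxygenase, averaged 3.86 ± 0.734 FPKM in TL, 4.46 ± 2.32 FPKM in TV and 3.04 ± 0.353 FPKM in NTV and was not called (0.37 ± 0.27 in TV against NTV, adjusted p = 0.328). G6pdx, which makes NADPH, was not called either (0.12 ± 0.39), and Slc7a11, the cystine transporter, stayed at or under 0.0279 FPKM and was not tested. In TL against TV none of the 18 was called, while Osgin1 and Ftl1 rose in TL against NTV, by 1.54 ± 0.30 and 0.74 ± 0.18.

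**Figure D4:**
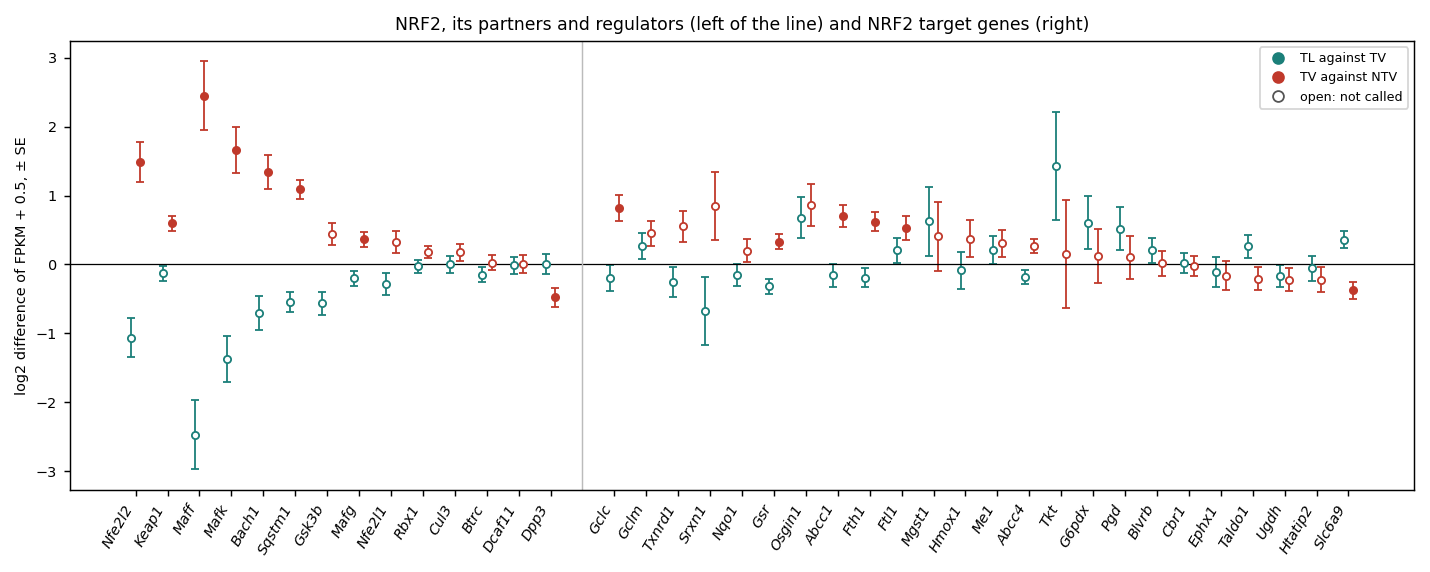
Log2 difference of FPKM + 0.5 ± SE (vertical axis) for TL against TV and TV against NTV, for Nfe2l2, Keap1 and 12 partners and regulators (left of the line) and for 6 members known as NRF2 targets and 18 other targets (right). Filled points are called; the comparisons share the TV libraries, so opposite signs within a gene are not independent, and Maff and Nfe2l2 stand among the highest in TV against NTV.

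Of 18 tested genes of glutathione turnover and cysteine supply, 3 rose and 3 fell in TV against NTV, with a median change of 0.07 and 25.2% of all genes called. Chac1, which breaks down glutathione, averaged 34.3 ± 23.6 FPKM in TL, 109 ± 56.7 FPKM in TV and 19.2 ± 4.96 FPKM in NTV, a rise in TV of 2.36 ± 0.49. Its relative Chac2 fell by -0.90 ± 0.15, as did Slc25a39, the mitochondrial glutathione importer, by -0.91 ± 0.15, and Oplah, which recycles oxoproline, by -0.76 ± 0.23. Slc3a2, the heavy chain of amino acid transporters, rose by 0.61 ± 0.12, and Abcc1 was the third rise. In TL against NTV, 1 of the 18 rose, Cndp2, and 2 fell, Slc25a39 and Chac2.

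Among 13 glutaredoxins, methionine sulfoxide reductases and sestrins, 1 rose and 4 fell in TV, where 13.8% of all genes rose and 11.5% fell, and their median change was -0.23. Sesn1, a sestrin, averaged 16.9 ± 2.84 FPKM in TL, 42.5 ± 18.6 FPKM in TV and 14.3 ± 2.48 FPKM in NTV, a rise in TV of 1.45 ± 0.26. Glrx, cytosolic glutaredoxin, fell by -0.73 ± 0.16, Glrx5, the mitochondrial form, by -0.41 ± 0.10, and the methionine sulfoxide reductases Msrb2 and Msra by -1.35 ± 0.33 and -0.47 ± 0.14. Sesn2 rose in TL against TV by 0.60 ± 0.11 (adjusted p = 0.0395), at 1.41 ± 0.184 FPKM in TL and 0.759 ± 0.0778 FPKM in TV, and rose in TL against NTV by 0.40 ± 0.11. It was the only gene called in TL against TV among the 8 gene lists counted here.

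Of 17 further selenoprotein and selenocysteine synthesis genes, 1 rose in TV, Selenok, and 3 fell, Scly, Selenon and Selenoi, by -0.67 ± 0.12, -0.63 ± 0.13 and -0.39 ± 0.10. These 4 calls of 17 lie near the 25.2% of all genes, and the median change was -0.09. Of 14 NADPH-supplying genes none rose and 1 fell, Mthfd2, by -0.49 ± 0.15. Mgst3, a microsomal glutathione transferase, rose by 1.03 ± 0.21 and averaged 229 ± 66.8 FPKM in TV and 109 ± 20.2 FPKM in NTV, while Mgst1 was not called. None of 6 tested oxidant-producing genes was called in TV against NTV, and Xdh, xanthine oxidoreductase, rose in TL against NTV by 0.98 ± 0.26.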

How the data were processed

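The deposited table holds FPKM, which the authors made before deposit, for 54532 genes in 12 muscle libraries, 4 each of TL, TV and NTV. Per the submitters' processing notes, the tools were featureCounts 1.5.0-p3, HISAT2 2.05 and DESeq2 and the build was mm10, with no role stated, and whether strand was used in counting is not given in the sources used here. The labels' protocols describe poly(A) selection and random hexamers. The labels call the samples biological replicates. FPKM times gene length was a whole number of steps for 100% of values, within 0.1 read, so reads were recovered; the scaling equals median-of-ratios factors. Libraries of the same group differed beyond counting error (chi-square over degrees of freedom 16.4 or more in every pair).

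Limma 3.58.1 in R 4.3.3 was fitted to log2(FPKM + 0.5) of the 12754 genes whose mean FPKM reached 0.5, with a mean for each group and a trend of variance on level, and p-values were adjusted by Benjamini-Hochberg over all of them. Adding 0.5 shrinks the changes of genes with low values. The fit was also run on simulated counts, drawn with independent libraries and the same dispersion (spread beyond counting error) for every gene and group. The real groups differed in spread, so that run is not read as a check of the results here. The members and gene lists were chosen with earlier results of these data known. The named genes are the called members, a fixed set of well-known members, and from each list the 3 genes with the lowest p in TV against NTV plus Hmox1, Slc7a11 and G6pdx; other list genes and untested members were named after their values were seen. Alternatives were other pseudocounts, filters, scalings and fits, voom on the recovered reads, a block for the replicate number, and single libraries left out; leaving out TL replicates 1 and 5 and the adipocyte covariate were added after the values were seen. Figures were drawn with Python 3.11.15 and matplotlib 3.10.9.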

Additional observations from a re-analysis of the deposited data

Results flagged for a closer look

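In 12 of 159 sets of 4 libraries (a tested member in a group), 1 library stood far from the other 3, where chance gives about 1 in 20. Txnip in TV replicate 3 was 112 FPKM, against 303 to 328 FPKM in the other TV libraries. Srxn1 in NTV replicate 3 was 18.3 FPKM (others 9.004 to 10.1), and Txnrd1 in TL replicate 1 was 25.0 FPKM (others 13.3 to 15.2). In NTV replicate 5, Gpx4 was 130 FPKM (others 159 to 165) and Gstm1 67.4 FPKM (others 80.9 to 81.5), and both are genes called higher in TV. In TL replicate 5, Gstk1 was 30.3 FPKM (others 23.4 to 23.8) and Txndc5 9.49 FPKM (others 8.18 to 8.32). Gsr in NTV replicate 2 was 11.5 FPKM (others 9.22 to 9.42), and Gstm7 in TV replicate 6 was 1.12 FPKM (others 2.43 to 2.57). In NTV replicate 6, Gstm4 was 8.06 FPKM (others 7.69 to 7.72) and Gstt1 5.81 FPKM (others 2.58 to 3.08). Txndc11 in TV replicate 4 was 1.56 FPKM (others 1.70 to 1.73).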

How the results depend on the processing

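Of 2574 values of single genes under alternatives, 2356 kept their side of the threshold. Those of them with no call moved by no more than their error, and some changed sign. Another 116 lost the call, 41 gained one, and 61 with no call moved by more than their error. No called value changed sign. Counts of called members stayed at 14 to 21 in TV against NTV under other pseudocounts, scalings and fits, except 13 with no filter on low values. With quantile normalization 9 rose and 12 fell, with the adipocyte covariate 8 rose and 12 fell, and without TL replicates 1 and 5 the counts were 8 and 7. In TL against NTV both of the last alternatives gave 2 rises and 5 falls, and 4 of the 7 original calls were shared. An equal total per library moved the median of all genes in TL against NTV to 0.14, against 0.02 with the deposited scale. Leaving out each library gave 11 to 19 called members in TV against NTV, 0 to 1 in TL against TV and 2 to 8 in TL against NTV, lowest without TL replicate 4 (2), with 3 without TL replicate 7 or NTV replicate 2, 5 or 6 and 4 without NTV replicate 3. With the replicate block 0 members were called in TV against NTV and 0 in TL against NTV, as were 0 genes of all. Same-numbered libraries correlated by 0.01 to 0.13, and differently numbered libraries of separate groups by -0.23 to 0.24. The shared numbers are few, so neither the block nor these correlations can show or exclude a pairing or a shared batch. Reads behind low members such as Gsta3 limit their precision.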
